A study of Arabidopsis thaliana with 8 samples.

Results

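The comparison described here asks which genes respond differently to a cytokinin when 3 of its transcription factors are disrupted. It is the interaction of genotype and treatment: the effect of benzyladenine (BA) in the mutant minus the effect of BA in wild type, on the log2 scale. It uses all 8 arrays of the series, single-colour Affymetrix Arabidopsis arrays in 4 groups of 2, and is given for 8 arrays and for 7. The groups are arr1,10,12 mutant seedlings with 10 µM BA, arr1,10,12 mutant seedlings with DMSO, wild-type seedlings with 10 µM BA, and wild-type seedlings with DMSO. All seedlings were 14 days old, had grown on sucrose medium in continuous light, and spent the final 1 h in liquid medium with BA or with its solvent. Roots were then removed and shoots frozen, per the treatment protocol, although the tissue label reads seedling. The labels name neither the mutant alleles nor separate cultures behind the 2 arrays of a group, and the p-values rest on the spread between these arrays alone, which may be technical.

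BA is a synthetic cytokinin. Cytokinin is sensed by histidine kinases whose phosphate passes through phosphotransfer proteins to the type-B response regulators, DNA-binding proteins that switch genes on. ARR1, ARR10 and ARR12 are the type-B regulators that carry much of the response in seedlings, and type-A response regulators, which dampen the pathway, are among their rapid targets. Where a BA effect is smaller in the mutant than in wild type, the interaction has the opposite sign to the wild-type effect.

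The deposited value of a probe set is a linear ratio, mostly to its own median over the 8 arrays, so arrays can be compared with one another but genes cannot be compared in level. Mutant DMSO replicate 1 stood apart from the other 7 arrays. Its median 5′ to 3′ log2 ratio over 6 pairs of control probe sets was -1.50, against -0.01 to 0.15 elsewhere, and its 25S ribosomal RNA control was at 197, against 0.666 to 3.48. Between the 2 mutant DMSO arrays 17.9% of probe sets differed by more than 2-fold, against 0.747 to 3.34% between the 2 arrays of each other group. In the 7-array fit without it the DMSO-treated mutant is mutant DMSO replicate 2 alone, assumed to vary like the other groups. The wild-type arrays have one file-name prefix and the mutant arrays have others, so genotype and prefix cannot be told apart. Mutant DMSO replicate 1 also has a prefix apart from the other mutant arrays, so its control values and its prefix cannot be told apart either. With 7 arrays each BA effect lies within 1 prefix. ARR1, ARR10 and ARR12 have 0 named probe sets, so the mutant label was not checked at the disrupted genes. Of 17 markers of root, mesophyll, guard cells and trichomes, 3 have a named probe set. The interaction was 0.02 ± 0.65 (SE, 7 arrays) for the root hair expansin EXPA7, 0.01 ± 0.22 for LHCB4.1 and 0.41 ± 0.20 for RCA, the activase of Rubisco. None of the 3 passed, and relative values cannot show whether a tissue's markers are expressed.

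Of 22746 probe sets tested with 7 arrays, 103 (0.453%) had an interaction with an adjusted p under 0.05, by limma with Benjamini-Hochberg adjustment. The interaction was positive in 44 (0.193%) and negative in 59 (0.259%), with sizes from 1.49 to 5.14 on the log2 scale. With mutant DMSO replicate 1 kept and replicate 2 left out, the test gave 4732 (20.8%). Leaving out 1 of the 7 arrays gave 0 when the array dropped was BA-treated wild-type replicate 2 or any DMSO-treated wild-type one, 47 for BA-treated wild-type replicate 1, and up to 515 for BA-treated mutant replicate 2. The 103 include 48 with the name of a single gene, 22 positive and 26 negative. One further probe set is assigned to more than 1 gene and 54 are unnamed here. With all 8 arrays 0 passed (1970 at an unadjusted p under 0.05), and limma with array weights also gave 0. Trended and robust moderation of the 7-array fit gave 71, and 26 of the 48 named genes then missed the threshold, among them AT2G27420 (limma adjusted p = 0.0745), RR16 (0.0959), AT3G05640 (0.104), AT1G21550 (0.139), AT1G11670 (0.173), AT1G13650 (0.183) and AT4G03610 (0.283). The lowest adjusted p with 8 arrays was 0.113. The median size of the interaction over the 103 was 2.31 with 7 arrays and 2.26 with 8, while their median SE was 0.26 with 7 and 0.60 with 8. The near-equal sizes hide opposite shifts. From 7 to 8 arrays the median went from -2.48 to -1.985 for negative interactions and from 2.25 to 2.48 for positive ones. In whole shoots, fewer cells of a type and less RNA per cell cannot be told apart. Over all probe sets the median interaction was 0.05 with 7 arrays and 0.03 with 8.

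The 103 were sorted by 2 rules on the point estimates of the 7-array fit, as a description with no test. By response, a BA effect of at least 1 log2 unit (2-fold) in wild type and under 1 in the mutant was called lost. Effects of at least 1 in both genotypes with opposite signs were called reversed, and an effect of at least 1 in the mutant only was called gained. The response was lost in 63 probe sets, reversed in 16 and gained in 24, and in 0 did both genotypes respond by 1 or more in the same direction. By level, 40 were set by the DMSO level, since the genotypes differed at least 2 times as much under DMSO as under BA, 29 by the BA level and 34 by both. The level classes compare mutant with wild-type arrays, so a difference between genotypes cannot be told apart there from a difference between file-name prefixes. The classes have soft edges: 16 of the 103 had a BA effect within 0.1 of the 1-unit border.

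**Figure D1:**
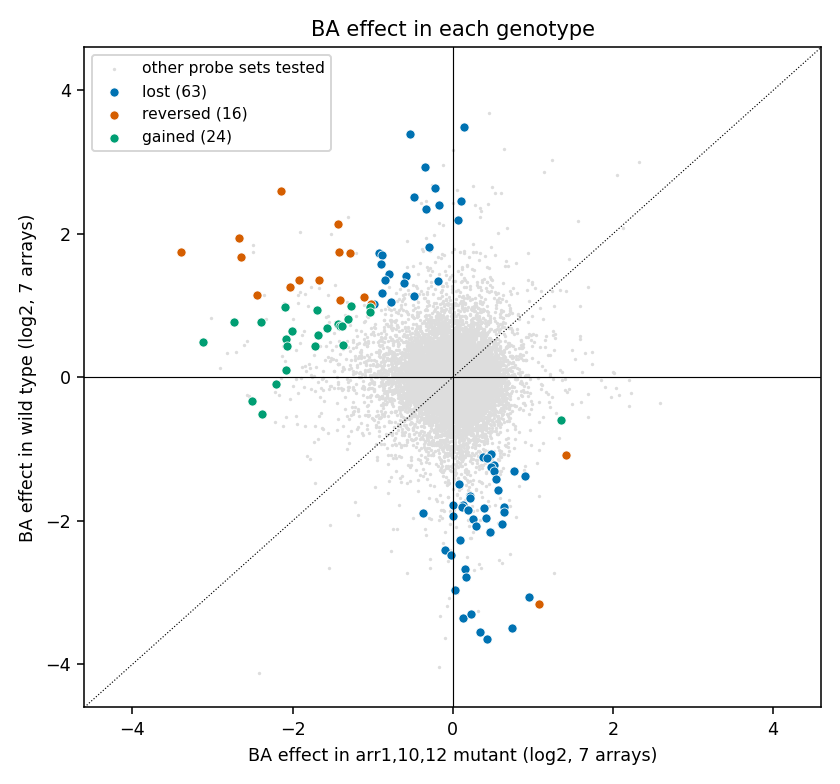
BA effect in the mutant (x axis) against BA effect in wild type (y axis), both in log2 units from the 7-array fit, for all probe sets tested (grey) and for the 103 with an interaction, coloured by response (63 lost, 16 reversed, 24 gained). Lost responses lie along the vertical axis, more of them below 0 than above it, and gained responses lie almost all to the left of it. The dotted line marks equal effects.

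The 2 signs held different kinds of change. Among the 44 positive interactions 41 were lost, 2 reversed and 1 gained. Among the 59 negative interactions 22 were lost, 14 reversed and 23 gained. All 63 lost probe sets also passed the limma test of BA in wild type (7 arrays), which 2.27% of all probe sets did. This test shares its 4 wild-type arrays with the interaction. In the mutant 8 probe sets passed the test of BA in all (0.0352%), and all 8 are among the 103, 7 gained and 1 reversed. That test shares its mutant arrays with the interaction and rests on mutant DMSO replicate 2 alone. With all 8 arrays 0 probe sets passed the test of BA in the mutant. Only 5 then passed it in wild type, although the wild-type arrays were the same, as the groups share 1 spread. These counts therefore do not measure how much of the response each genotype had.

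Genes that BA lowered in wild type and that lost this response made up the largest group, 41 probe sets. Their median BA effect was 0.34 in the mutant, against -1.87 in wild type (log2). The median relative value over the 41 was 1.11 and 1.07 on the mutant BA arrays, 0.589 and 0.888 on mutant DMSO, 0.592 and 0.498 on wild-type BA, and 1.86 and 1.88 on wild-type DMSO. The wild-type DMSO arrays were therefore the high ones. In 35 of the 44 positive probe sets, both wild-type DMSO arrays lay above all 6 other arrays, against 5.12% of all probe sets, a share that the choice of members favours. Under DMSO the groups did not overlap, with the mutant lower, in 39 of the 44, against 13.8% of all probe sets. This count includes replicate 1, which the 7-array fit did not use, but its other arrays chose the members, which favours a high count. Under BA the groups did not overlap, with the mutant higher, in 40 of the 44, against 41.1% of all probe sets. All of these BA arrays were used to choose the members, so nothing is read from that share.

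AT2G27420, a papain-like cysteine protease, had relative values of 1.45 and 1.03 with BA and 0.687 and 0.966 with DMSO in the mutant. In wild type it was at 0.568 and 0.498 with BA and 5.35 and 7.25 with DMSO. Only the wild-type DMSO arrays were high, and the other 6 spanned 0.498 to 1.45. The interaction was 3.89 ± 0.35 (limma adjusted p = 0.0215, 7 arrays) and 4.14 ± 0.38 with 8 arrays (adjusted p = 0.113). AT1G13650 was likewise high on the wild-type DMSO arrays alone. It was at 1.22 and 1.01 (BA) and 0.901 and 0.832 (DMSO) in the mutant, against 0.990 and 0.823 (BA) and 3.27 and 3.81 (DMSO) in wild type, with an interaction of 2.38 ± 0.27 (limma adjusted p = 0.0314). Its 4 mutant arrays and 2 wild-type BA arrays overlapped, although both BA-treated mutant arrays lay slightly above both BA-treated wild-type ones. The genotypes differed by -2.09 under DMSO and by 0.30 under BA (log2, 7 arrays), so most of the difference lay at the DMSO level. AT3G24460, a serine incorporator-family membrane protein, was at 0.867 and 0.943 in DMSO-treated mutant seedlings and at 2.32 and 2.83 in DMSO-treated wild type. Its BA-treated arrays were at 0.982 and 1.18 in the mutant and 0.781 and 0.649 in wild type, and the interaction was 2.04 ± 0.28 (limma adjusted p = 0.0476). A total of 13 lost probe sets with a positive interaction were set by the DMSO level in this way. In all 13 the DMSO-treated groups did not overlap, with the mutant lower, against 13.8% of all probe sets. The class rule favours this, as it uses all of these arrays but mutant DMSO replicate 1. The BA-treated groups also did not overlap in most of the 13, so the genotypes did not differ under DMSO alone. The mutant was higher under BA in 10 (41.1% of all probe sets) and lower in 2 (18.4%). Of the other named ones, AT1G20120, a GDSL lipase, AT5G59400 and the cytochrome P450 CYP71B26 had interactions of 1.54, 1.73 and 2.08.

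**Figure D2:**
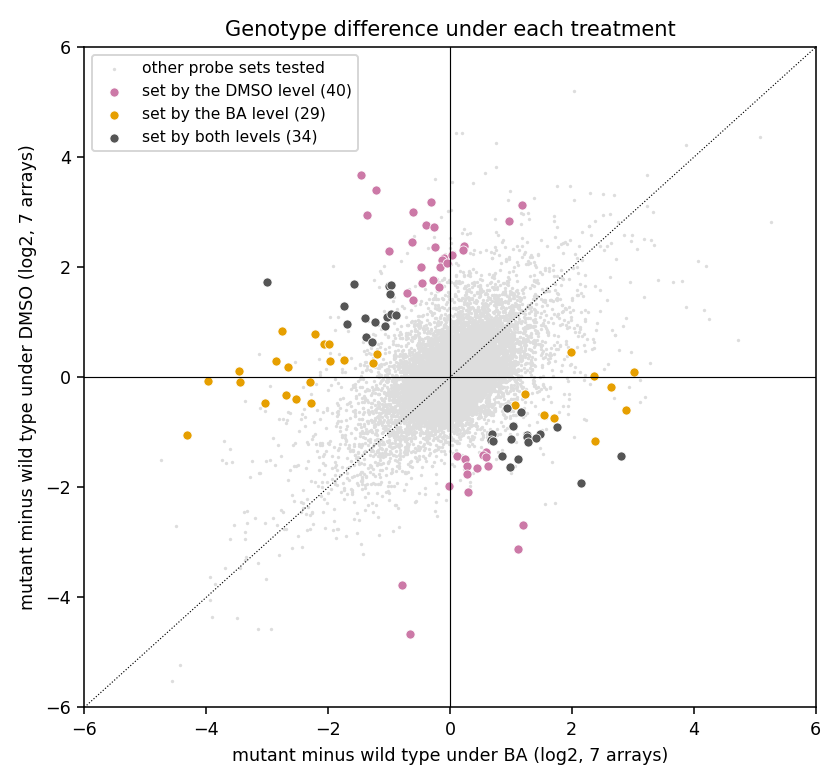
Difference between mutant and wild type under BA (x axis) and under DMSO (y axis), in log2 units from the 7-array fit, for all probe sets tested (grey) and the 103 with an interaction, coloured by the treatment that sets it (40 DMSO, 29 BA, 34 both). Points near the vertical axis differ between genotypes mainly under DMSO and points near the horizontal axis mainly under BA. The dotted line marks an interaction of 0.

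A second set of lowered genes differed between genotypes mainly under BA, with 10 probe sets. AT2G19650, a cysteine- and histidine-rich protein, was at 1.20 and 1.17 with BA in the mutant, against 0.180 and 0.118 with BA in wild type. With DMSO it was at 0.272 and 1.06 in the mutant and 0.951 and 1.05 in wild type. The interaction was 2.94 ± 0.33 (limma adjusted p = 0.0307, 7 arrays). The wild-type BA arrays were the lowest, but mutant DMSO replicate 1 was low too, so the DMSO-treated groups overlapped. AT4G24700 was at 1.03 and 0.977 with BA in the mutant and 0.334 and 0.283 with BA in wild type, and its interaction was 2.45 ± 0.25 (limma adjusted p = 0.0225). Its DMSO values were 0.453 and 1.02 in the mutant and 1.58 and 1.86 in wild type, which did not overlap. AT1G65490 (2.35), AT2G04795 (1.53) and AT5G15950 (1.56), an S-adenosylmethionine decarboxylase of polyamine synthesis, completed the named genes of this kind. Over the 10 probe sets the median relative value was 0.243 on mutant DMSO replicate 1 and 1.01 on replicate 2, and how far the quality of replicate 1 bears on them was not tested.

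In 18 lost probe sets with a positive interaction both levels contributed. AT5G42760, a leucine carboxyl methyltransferase-family gene, was at 1.88 and 1.13 (BA) and 0.294 and 0.870 (DMSO) in the mutant, against 0.225 and 0.191 (BA) and 1.97 and 2.77 (DMSO) in wild type. The wild-type effect was -3.49 ± 0.28 and the interaction 4.24 ± 0.44 (limma adjusted p = 0.0236), the largest positive one with 7 arrays. AT2G15020 was at 1.30 and 1.11 (BA) and 0.273 and 0.894 (DMSO) in the mutant, against 0.345 and 0.212 (BA) and 3.08 and 3.71 (DMSO) in wild type, with an interaction of 4.06 ± 0.39 (limma adjusted p = 0.0225). In both genes the mutant arrays were higher than wild type under BA and lower under DMSO, with no overlap in either treatment. AT3G56290 was at 1.22 and 1.14 (BA) and 0.160 and 0.858 (DMSO) in the mutant, against 0.617 and 0.479 (BA) and 2.32 and 2.51 (DMSO) in wild type. Its interaction was 2.61 ± 0.26 (limma adjusted p = 0.0225). AT1G23205, an invertase and pectin methylesterase inhibitor-family gene, was at 1.14 and 1.42 (BA) and 0.684 and 0.862 (DMSO) in the mutant, against 0.662 and 0.602 (BA) and 1.86 and 1.87 (DMSO) in wild type. The wild-type DMSO arrays were the high ones and the groups did not overlap, and the interaction was 2.12 ± 0.25 with 7 arrays and 2.29 ± 0.26 with 8 (limma adjusted p = 0.0323 and 0.168). The other named genes were AFR, an F-box protein of far-red light signalling (1.78), the acetyltransferase-family genes AT1G26220 (1.49) and AT1G72030 (1.81), AT2G04039, a subunit of the chloroplast NDH complex (1.92), and AT1G62250 (1.87). AT1G72030 depended on the mutant DMSO array: it was at 2.25 on replicate 1 and 0.700 on replicate 2, against 1.49 and 1.60 in DMSO-treated wild type.

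**Figure D3:**
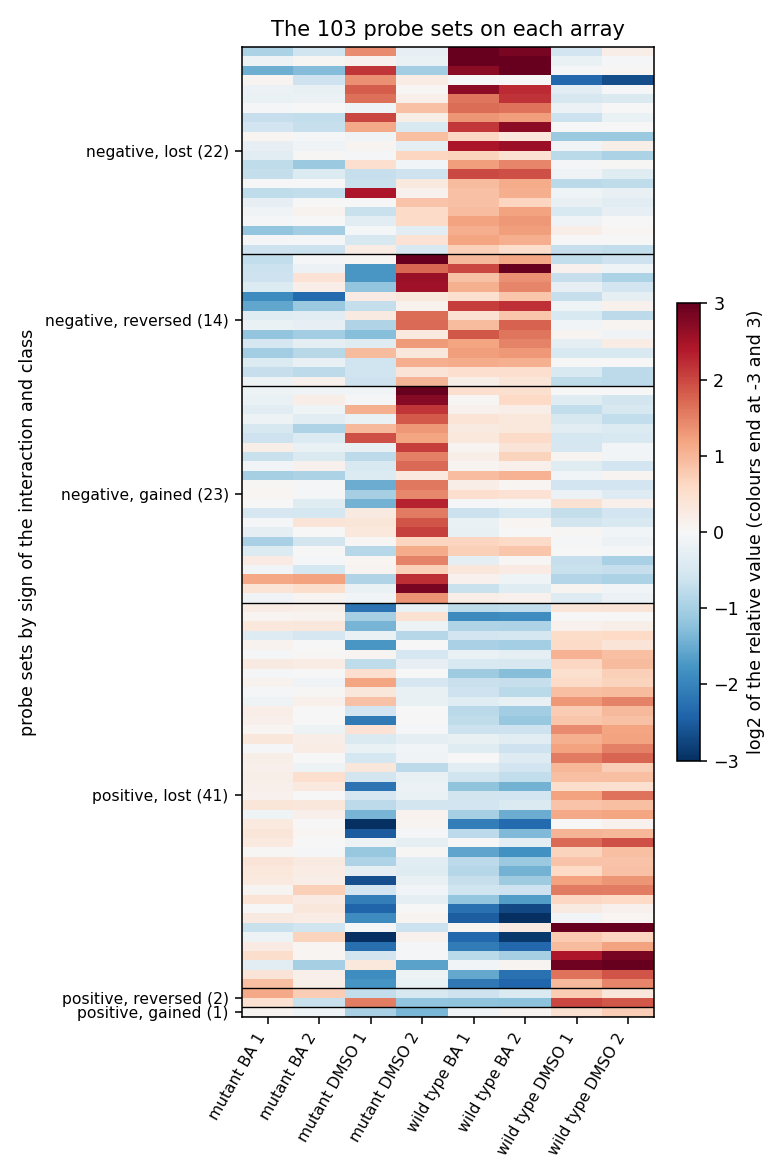
The log2 relative value of the 103 probe sets (rows, by sign of the interaction and by class) on the 8 arrays (columns). Both wild-type DMSO arrays are the highest in 33 of the 41 lost rows with a positive interaction, both wild-type BA arrays are the highest in 15 of the 22 lost rows with a negative one, and the 23 gained rows with a negative one are high mainly on mutant DMSO replicate 2.

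Genes that BA raised in wild type and that lost this response numbered 22 probe sets, 14 of them set by the BA level. Over the 22 the median BA effect was -0.51 in the mutant, against 1.72 in wild type (log2). Among all 59 negative interactions both wild-type BA arrays lay above the 6 other arrays in 22 (4.42% of all probe sets), both wild-type DMSO arrays lay below them in 15 (5.97%), and both mutant DMSO arrays lay above them in 6 (7.38%). Under BA the mutant was lower with no overlap in 48 of the 59, against 18.4% of all probe sets. The 59 were chosen on these same arrays, mutant DMSO replicate 1 aside, which favours such counts, so nothing is read from them. RR16 (ARR16), a type-A response regulator, was at 0.609 and 0.748 with BA and 0.618 and 0.647 with DMSO in the mutant. In wild type it was at 3.93 and 3.85 with BA and 0.926 and 0.783 with DMSO. Only the wild-type BA arrays were high, and both mutant DMSO arrays gave nearly the same level, so the interaction was -2.13 ± 0.26 with 7 arrays and -2.10 ± 0.24 with 8 (limma adjusted p = 0.0350 and 0.168). AT4G03610, a metallo-hydrolase-family gene, was at 0.842 and 0.928 (BA) and 1.05 and 0.824 (DMSO) in the mutant, against 5.50 and 5.94 (BA) and 0.946 and 1.13 (DMSO) in wild type. The interaction was -2.36 ± 0.24 with 7 arrays and -2.54 ± 0.26 with 8 (limma adjusted p = 0.0225 and 0.146). In RR16 and AT4G03610 the 4 mutant arrays did not exceed 1.05. The probe set 264470_at, unnamed here and picked after its values were seen, had the largest wild-type effect of the 22. It was at 0.902 and 1.02 (BA) and 1.09 and 0.867 (DMSO) in the mutant, against 12.2 and 8.89 (BA) and 0.872 and 0.980 (DMSO) in wild type.

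Further raised genes of this kind differed between the mutant DMSO arrays. AT3G05640, a protein phosphatase 2C gene, was at 0.875 and 0.890 with BA in the mutant, against 3.04 and 4.53 with BA in wild type, and its interaction was -2.68 ± 0.32 (limma adjusted p = 0.0344). With DMSO it was at 3.15 and 1.11 in the mutant and 0.713 and 0.745 in wild type. AT1G21550, an EF-hand calcium-binding protein gene, was at 0.673 and 0.621 with BA in the mutant, against 4.36 and 6.45 in wild type, and at 2.20 and 0.726 with DMSO in the mutant, against 1.01 and 0.994 in wild type (interaction -2.57 ± 0.32, limma adjusted p = 0.0353). For both genes mutant DMSO replicate 1 was above replicate 2, so the 8-array interaction was further from 0, -3.43 and -3.37. AT3G44190, a FAD-dependent oxidoreductase-family gene, followed them, with 3.99 and 1.13 on the mutant DMSO arrays, 0.635 and 0.873 on the wild-type DMSO arrays, and 0.624 and 0.602 with BA in the mutant, against 2.49 and 2.38 in wild type. Its interaction was -2.59 ± 0.28 (limma adjusted p = 0.0257). AT1G11670, a MATE efflux transporter gene, was at 0.967 and 0.987 (BA) and 0.918 and 1.84 (DMSO) in the mutant, against 3.18 and 3.09 (BA) and 0.881 and 1.01 (DMSO) in wild type (interaction -2.65 ± 0.21, limma adjusted p = 0.0185). The high BA level was found in wild type alone. Smaller interactions were those of AT4G16000 (-2.12), AT5G11070 (-2.00), ORA47, an AP2/ERF transcription factor (-1.91), and AT1G28190 (-1.62).

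COR15B, a cold-regulated chloroplast protein, lost its BA response through the DMSO level. It was at 1.06 and 0.650 (BA) and 2.60 and 1.17 (DMSO) in the mutant, against 1.01 and 0.985 (BA) and 0.195 and 0.157 (DMSO) in wild type. The BA-treated groups overlapped, and the wild-type DMSO arrays were the lowest of the 8. The interaction was -3.00 ± 0.39 (limma adjusted p = 0.0411), with a BA effect of -0.49 ± 0.30 in the mutant and 2.51 ± 0.25 in wild type. AT3G51660, a gene of the macrophage migration inhibitory factor family, also had its lowest values on the wild-type DMSO arrays, 0.567 and 0.516, against 0.968 and 1.57 with DMSO in the mutant (interaction -2.24).

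**Figure D4:**
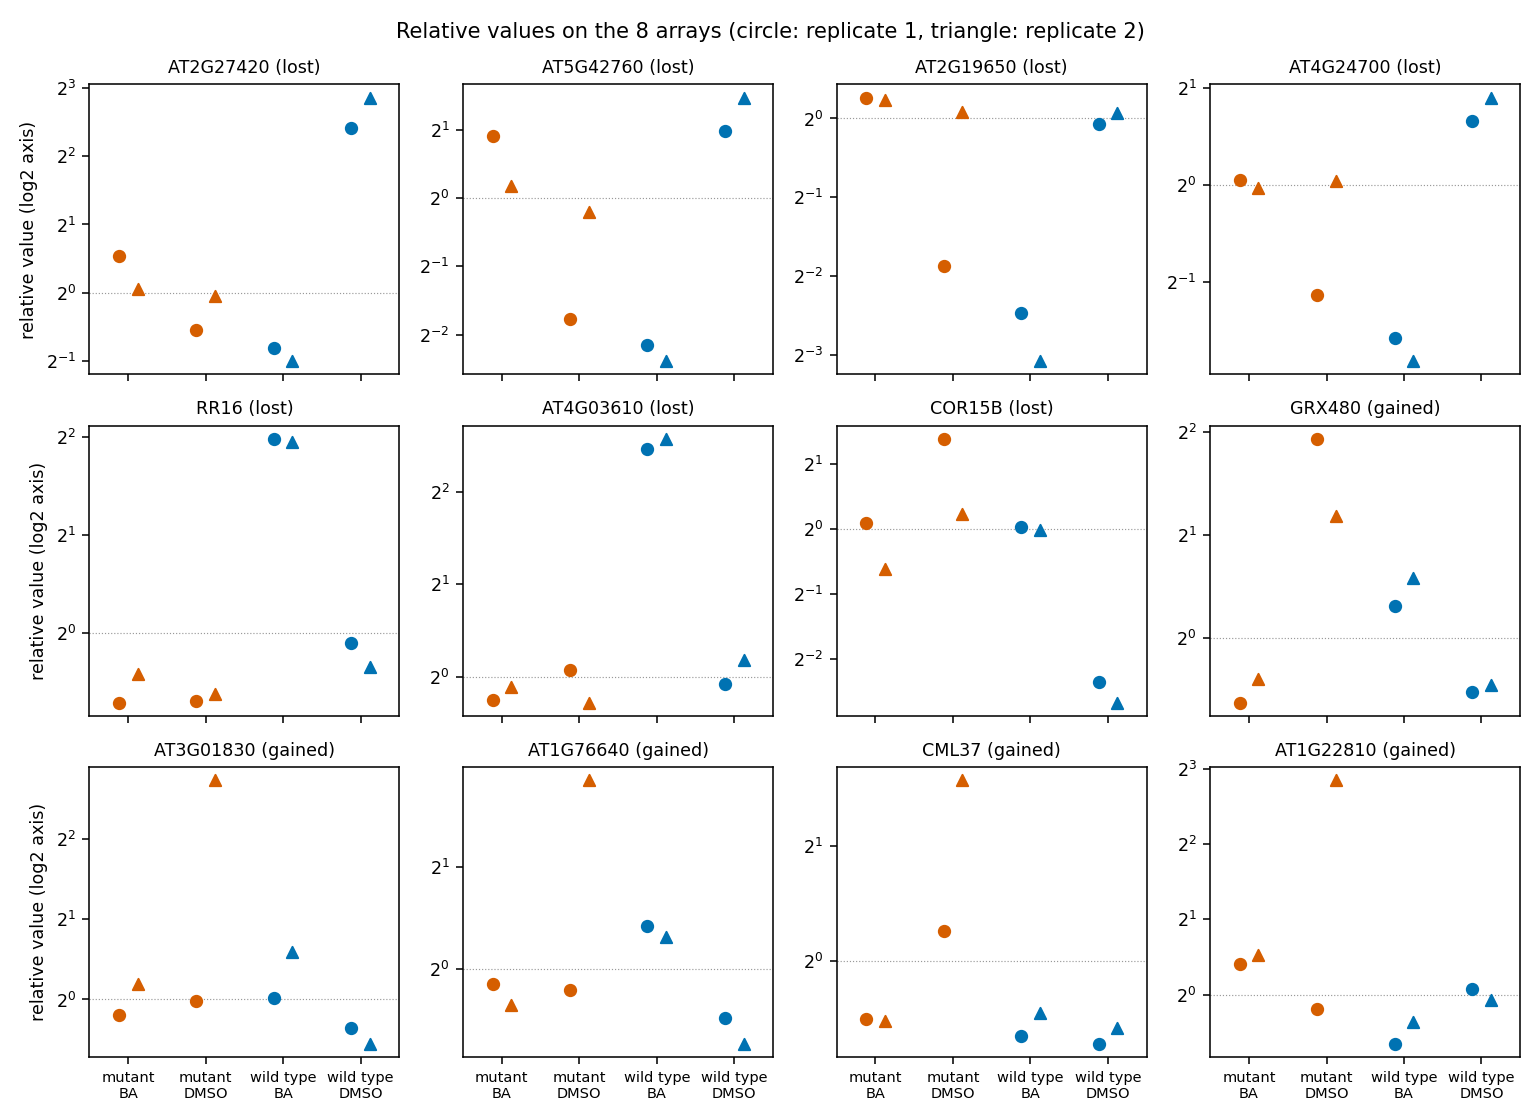
Relative values (log2 axis, 1 is marked by the dotted line) of 12 named genes on the 8 arrays, by group, with circles for replicate 1 and triangles for replicate 2. AT2G27420 is high only with DMSO in wild type and RR16 only with BA in wild type, while AT3G01830, AT1G76640 and AT1G22810 are high only on mutant DMSO replicate 2.

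Reversed responses, 16 probe sets, were mostly negative interactions in which BA raised the gene in wild type and the mutant BA arrays were lower than mutant DMSO replicate 2. AT1G61890, a MATE efflux transporter gene, was at 0.707 and 0.812 (BA) and 0.782 and 2.42 (DMSO) in the mutant, against 2.28 and 2.82 (BA) and 0.834 and 1.17 (DMSO) in wild type. The interaction was -3.04 ± 0.33 (limma adjusted p = 0.0257), but only replicate 2 of the mutant DMSO arrays was above the mutant BA arrays. AT5G54170, a START-domain protein gene, was at 0.754 and 0.852 (BA) and 0.664 and 2.12 (DMSO) in the mutant, against 2.15 and 2.08 (BA) and 0.986 and 1.01 (DMSO) in wild type (interaction -2.49 ± 0.21, limma adjusted p = 0.0205). AT4G22980, a molybdenum cofactor sulfurase-like gene, was at 0.622 and 0.582 (BA) and 0.662 and 1.30 (DMSO) in the mutant, against 1.42 and 1.41 (BA) and 0.731 and 0.577 (DMSO) in wild type (-2.24 ± 0.25, limma adjusted p = 0.0291). The protein kinase gene AT5G40540 was at 0.905 and 1.09 (BA) and 0.654 and 2.02 (DMSO) in the mutant, against 1.13 and 1.28 (BA) and at most 0.594 (DMSO) in wild type (-2.05 ± 0.24, limma adjusted p = 0.0344). In these 4 genes the wild-type increase passed the limma test (adjusted p = 0.0166 to 0.0288, 7 arrays) and the mutant BA effect did not. Over the 14 negative reversed probe sets the median relative value was 0.658 on mutant DMSO replicate 1 and 2.27 on replicate 2.

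Reversal with a positive sign was seen in AT3G44450 and AT5G62130. AT5G62130, a membrane protein gene of the Per1-like family, was at 2.21 and 1.66 (BA) and 0.597 and 0.718 (DMSO) in the mutant, against 0.647 and 0.738 (BA) and 1.69 and 1.26 (DMSO) in wild type. Its groups fell into 2 high and 2 low ones with no overlap in either genotype, and its interaction was 2.50 ± 0.33 with 7 arrays and 2.63 ± 0.32 with 8 (limma adjusted p = 0.0423 and 0.172). The BA effect was 1.42 ± 0.26 in the mutant and -1.08 ± 0.21 in wild type, and neither passed on its own (limma adjusted p = 0.213 and 0.0576). AT3G44450 (BIC2), which encodes an inhibitor of the blue light receptors, was at 1.37 and 0.633 (BA) and 2.91 and 0.442 (DMSO) in the mutant, against 0.433 and 0.424 (BA) and 4.00 and 3.67 (DMSO) in wild type. Its interaction was 4.23 ± 0.52 with 7 arrays (limma adjusted p = 0.0353) and 2.87 with 8. With mutant DMSO replicate 1 alone it was 1.51, and the BA effect in the mutant was then below 0.

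Gained responses numbered 24 probe sets, 23 of them negative, and 17 of these were set by the DMSO level. Over the 17 the median relative value was 0.939 and 0.972 on the mutant BA arrays, 0.940 and 3.67 on mutant DMSO replicates 1 and 2, 1.06 and 1.09 on wild-type BA, and 0.713 on each wild-type DMSO array. A single array, mutant DMSO replicate 2, was the high one. The median interaction over the 17 was -2.18 with replicate 2 alone and -0.38 with replicate 1 alone. The DMSO-treated groups did not overlap, with the mutant higher, in 9 of the 17, against 29.4% of all probe sets, a share that the class rule favours.

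The genes behind these values include 3 calmodulin-like calcium sensors. AT3G01830 (CML40) was at 0.877 and 1.14 (BA) and 0.983 and 6.64 (DMSO) in the mutant, against 1.02 and 1.51 (BA) and 0.781 and 0.680 (DMSO) in wild type (interaction -3.49 ± 0.36, limma adjusted p = 0.0236). AT1G76640 (CML39) was at 0.901 and 0.784 (BA) and 0.867 and 3.60 (DMSO) in the mutant, against 1.34 and 1.24 (BA) and 0.713 and 0.599 (DMSO) in wild type (-3.08 ± 0.24, limma adjusted p = 0.0182). CML37 was at 0.707 and 0.697 (BA) and 1.20 and 2.96 (DMSO) in the mutant, against 0.638 and 0.731 (BA) and 0.608 and 0.669 (DMSO) in wild type (-2.18 ± 0.22, limma adjusted p = 0.0228). CML37 was the one of these 3 in which mutant DMSO replicate 1 also lay above all BA arrays. AT5G56980 was at 0.372 and 4.99 on the mutant DMSO arrays, and its other 6 values lay between 0.776 and 1.38. Its interaction was -2.18 ± 0.28 (limma adjusted p = 0.0422) with 7 arrays and -0.30 with 8. AT2G32140, a TIR-domain protein gene that is gained but set by both levels and so not among the 17, was at 0.579 and 2.87 with DMSO in the mutant and 1.05 and 0.950 with DMSO in wild type, and at 0.633 and 0.737 with BA in the mutant and 1.15 and 1.58 in wild type (-2.50 ± 0.30, limma adjusted p = 0.0347). The other named genes of the 17 were AT5G65300 (-2.16), the armadillo-repeat gene AT3G02840 (-2.12), AT1G22810, an AP2/ERF transcription factor (-1.88), and the U-box protein gene AT5G61560 (-1.82).

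GRX480, a glutaredoxin induced by salicylate, is a gained gene in which both mutant DMSO arrays were high. It was at 0.648 and 0.758 (BA) and 3.83 and 2.27 (DMSO) in the mutant, against 1.24 and 1.5 (BA) and 0.696 and 0.728 (DMSO) in wild type. The 2 mutant DMSO arrays lay above all other arrays. The interaction was -2.64 ± 0.25 with 7 arrays and -3.01 ± 0.37 with 8 (limma adjusted p = 0.0218 and 0.172).

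**Figure D5:**
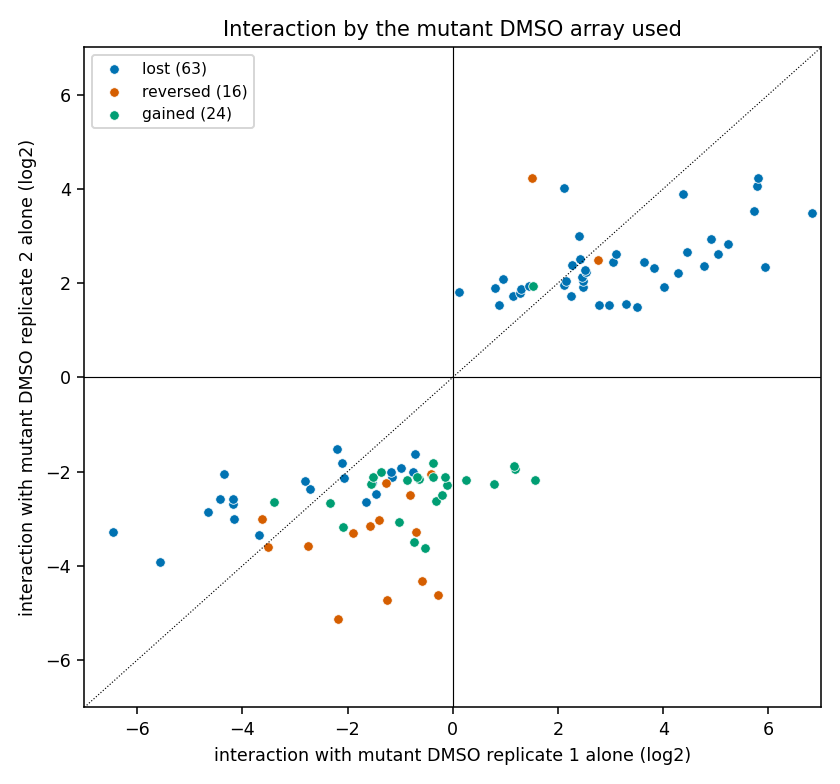
Interaction (log2) of the 103 probe sets computed with mutant DMSO replicate 1 alone (x axis) and with replicate 2 alone (y axis), by response class. The 2 axes share the other 6 arrays. The 24 gained probe sets spread from -3.39 to 1.57 on the x axis, with a median of -0.45 there and -2.18 on the y axis.

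How far interaction sizes rest on the arrays chosen was described for each class by the 16 ways of taking 1 array per group. An interaction of at least 1 log2 unit, with 1 sign, was found in all 16 for 69 of the 103, against 1.22% of all probe sets. The members were chosen on 7 of these arrays, which favours a high share. Among lost probe sets this held for 36 of 41 with a positive interaction (0.695% of all probe sets) and 18 of 22 with a negative one (0.528%). It held for 8 of the 16 reversed and 7 of the 24 gained. Of the 17 negative gained probe sets set by the DMSO level, it held for 2. For AT5G42760 the 16 values ran from 3.51 to 6.53, for AT2G27420 from 3.33 to 4.94, for RR16 from -2.42 to -1.78 and for GRX480 from -3.67 to -2.35. For AT5G56980 they ran from -2.53 to 1.93. The 16 choices describe the size of an interaction and do not show whether its class holds. By the mean of both mutant DMSO arrays, AT5G42760, AT2G15020, AT3G56290, AT2G19650, COR15B, AT3G05640 and AT3G44190, among others, moved from lost to reversed. AT2G27420, AT4G03610, AT1G21550 and RR16, among others, stayed lost.

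The 8 named genes with the lowest p in the 8-array fit were AT2G27420, AT4G03610, AT1G13650, RR16, AT1G23205, AT5G62130, GRX480 and AT3G24460. All 8 are among the 48, and none passed with 8 arrays (limma adjusted p = 0.113 to 0.172). Their 8-array interactions ran from -3.01 to 4.14, and each had the same sign in all 16 choices of arrays. The genes were chosen on these same 8 arrays, which favours a constant sign, so nothing is read from it.

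Among 14 lists of genes, chosen with earlier results of these data known, 36 of 147 genes have a named probe set, in 12 lists. With 7 arrays 10 of the 36 passed, all negative, against 0.259% of all probe sets, and with 8 arrays 0 did. Since some list genes were entered for how they moved here, nothing is read from these counts. The touch and rapid stress list held 7 of the 10, out of 10 named, with a median interaction of -2.15 with 7 arrays and -1.25 with 8. With mutant DMSO replicate 1 alone 2 of its genes turned sign, AT5G56980 (1.57) and AT1G22810 (1.16). Of 2 type-A response regulators 1 passed (RR16), and the median was -2.05. ARR15, the other, was at 0.728 and 0.809 (BA) and 0.618 and 0.507 (DMSO) in the mutant, against 6.16 and 2.23 (BA) and 0.635 and 0.613 (DMSO) in wild type. Its interaction was -1.97 ± 0.66 (limma adjusted p = 0.315), and its wild-type BA arrays differed 2.76-fold.

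Of the cold and abscisic acid list 1 of 3 passed (COR15B, median -3.00), and of the salicylate list 1 of 2 (GRX480, median -2.33). No gene passed among 3 of heat shock (median -2.31), 5 of the auxin early response (-1.05), 3 of light and chlorophyll (0.07), 2 of flavonoid synthesis (2.52), 2 of cytokinin metabolism (-0.47), 2 other type-B response regulators (0.30), 1 clock gene (0.31) and 1 root marker (0.02). With 8 arrays the median was -3.65 for heat shock, 0.45 for auxin, 0.75 for light and chlorophyll, -2.05 for cold and abscisic acid, -0.72 for cytokinin metabolism, 0.09 for the other type-B regulators and -0.43 for the root marker, so these values depended on mutant DMSO replicate 1, and for auxin and the root marker the sign did too. The cytokinin response factors and the receptors and phosphotransfer proteins have 0 named genes. UGT76C2, a cytokinin N-glucosyltransferase, was at 0.544 and 0.896 (BA) and 0.973 and 0.498 (DMSO) in the mutant, against 3.78 and 2.37 (BA) and 1.33 and 1.03 (DMSO) in wild type. Its interaction of -0.87 did not pass (limma adjusted p = 0.586), and it was lower in the mutant under both treatments.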

How the data were processed

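The authors deposited 1 linear ratio per probe set and array, a unit read from the values: 70.1% of the probe sets have a median within 0.005 of 1 over the 8 arrays. How probes were summarized and arrays scaled: not given in the sources used here. Of 22810 probe sets, 64 controls were left out and 22746 tested. A probe annotation gives 1 gene for 13513 (59.4%), several for 503 and none for 8730, and 13436 of the 13513 were found in the RefSeq table of TAIR10.1, which supplied symbols. No gene among the 48 has more than 1 probe set.

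Log2 ratios, computed here from the deposited values, were fitted with limma (version 3.58.1, R 4.3.3), 1 mean per group and empirical Bayes moderation, on 8 arrays (4 residual degrees of freedom) and on 7 (3), with Benjamini-Hochberg adjustment over 22746 and a threshold of 0.05. Groups and replicate numbers came from the titles. Same-numbered arrays did not deviate together (correlations of deviations -0.17 to 0.12), so numbers do not pair the arrays. Precision is limited by how few arrays there are. The genes named with array values were, per class, up to 6 with the largest interaction, and the 8 with the lowest 8-array p. Members, classes and lists were chosen with earlier results of these data known. Genes of the lists could be given by lowest p. Array values of AT3G51660, AT1G72030 and 264470_at were added after their values were seen.

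Each fit was first tested on simulated data.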

Additional observations from a re-analysis of the deposited data

Results flagged for a closer look

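The results here were picked out because the genotypes differed in their BA response by the test of that difference itself (limma interaction, 7 arrays, adjusted p under 0.05). They are the count of 103 probe sets and the 48 named genes. None of the 48 passed with 8 arrays.

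Positive interactions (log2) were 4.24 for AT5G42760, 4.23 for AT3G44450, 4.06 for AT2G15020, 3.89 for AT2G27420, 2.94 for AT2G19650 and 2.61 for AT3G56290. They were 2.50 for AT5G62130, 2.45 for AT4G24700, 2.38 for AT1G13650, 2.35 for AT1G65490, 2.12 for AT1G23205, 2.08 for CYP71B26 and 2.04 for AT3G24460. Those under 2 were 1.92 for AT2G04039, 1.87 for AT1G62250, 1.81 for AT1G72030, 1.78 for AFR, 1.73 for AT5G59400, 1.56 for AT5G15950, 1.54 for AT1G20120, 1.53 for AT2G04795 and 1.49 for AT1G26220.

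Negative interactions were -3.49 for AT3G01830, -3.08 for AT1G76640, -3.04 for AT1G61890, -3.00 for COR15B, -2.68 for AT3G05640, -2.65 for AT1G11670, -2.64 for GRX480, -2.59 for AT3G44190 and -2.57 for AT1G21550. They were -2.50 for AT2G32140, -2.49 for AT5G54170, -2.36 for AT4G03610, -2.24 for AT3G51660 and AT4G22980, -2.18 for AT5G56980 and CML37, -2.16 for AT5G65300 and -2.13 for RR16. The smallest were -2.12 for AT3G02840 and AT4G16000, -2.05 for AT5G40540, -2.00 for AT5G11070, -1.91 for ORA47, -1.88 for AT1G22810, -1.82 for AT5G61560 and -1.62 for AT1G28190.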

How the results depend on the processing

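With 8 arrays the count of 0 became 5 with an offset of 32, 18 with quantile normalization, 1 with trended robust moderation and 103 with the file-name prefix as a block, which spends its own term on mutant DMSO replicate 1. Leaving out 1 array gave 0 to 4732, the highest without mutant DMSO replicate 2. With 7 arrays the count of 103 became 159 with an offset of 32 (38 positive, 121 negative) and 4732 when replicate 1 stood for the DMSO-treated mutant instead. Leaving out 1 of the 7 arrays gave 0 to 515: 515 when BA-treated mutant replicate 2 was dropped, 151 for its mate, 47 when BA-treated wild-type replicate 1 was dropped, and 0 for its mate and for either DMSO-treated wild-type array. Trended and robust moderation gave 71, with 22 of the 48 named genes still past the threshold. The offset of 1 gave 113 and moved the split to 35 positive and 78 negative. The replicate block, of numbers not known to pair the arrays, left none passing in either fit (1706 at an unadjusted limma p under 0.05 with 8 arrays). Why the counts moved was not tested.

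Of the classes, reversed became 47, 29 and 33 and gained 9, 10 and 6 with a 1.5-fold border, the mean of both mutant DMSO arrays, and replicate 1 alone. Replicate 1 alone also gave 41 lost, 5 of the same sign in both genotypes and 18 with neither effect reaching 1. The mean of both gave 14 of the last kind. Leaving out 1 array in the 7-array fit gave 0 to 2 of that kind. A level ratio of 1.5 left 19 set by both. Leaving out 1 array otherwise gave 60 to 64 lost, 15 to 19 reversed, 22 to 25 gained, 36 to 41 set by DMSO, 28 to 34 by BA and 32 to 37 by both. Of the 48 genes, 2 turned sign when mutant DMSO replicate 1 alone was used, AT5G56980 (1.57) and AT1G22810 (1.16). No other refit turned a sign among the 48, although single choices of 1 array per group did for AT2G32140 and AT1G72030 too. With 2 arrays per group at most, small interactions are not detectable here.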

Other observations

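Outside the 103, a further 209 probe sets had an interaction of at least 1 log2 unit in all 16 choices of 1 array per group, a description added after the data were seen. In all, 278 did (1.22% of those tested, 158 positive and 120 negative), of which 69 are among the 103. The 3 named genes of the heat shock list, out of 9 listed, are among them and did not pass with 7 arrays. AT2G29500, a small heat shock protein gene, was at 0.825 and 0.557 (BA) and 2.81 and 0.851 (DMSO) in the mutant, against 4.52 and 6.09 (BA) and 0.788 and 1.15 (DMSO) in wild type. Its interaction was -2.79 with 7 arrays and -3.65 with 8 (limma adjusted p = 0.0624 and 0.306). The small heat shock protein gene AT5G51440 had -2.31 and -2.92 (limma adjusted p = 0.0786 and 0.293), and the peptidyl-prolyl isomerase gene AT5G48570 had -2.12 and -4.11 (0.305 and 0.574). In all 3 both mutant BA arrays lay below both wild-type BA arrays, as in 18.4% of all probe sets, and mutant DMSO replicate 1 lay above replicate 2.

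COR27, a cold-regulated gene of the clock and light pathways, was at 0.541 and 0.741 (BA) and 1.70 and 1.12 (DMSO) in the mutant, against 1.95 and 2.56 (BA) and 0.876 and 0.794 (DMSO) in wild type. Its groups did not overlap under either treatment, and its interaction was -2.25 (limma adjusted p = 0.0563, 7 arrays). AT1G10340, an ankyrin-repeat protein gene, was at 0.745 and 1.00 (BA) and 2.81 and 3.19 (DMSO) in the mutant, against 1.16 and 0.975 (BA) and 1.00 and 0.922 (DMSO) in wild type. The 2 mutant DMSO arrays were the highest and close to each other, and the interaction was -2.03 (limma adjusted p = 0.0549). UGT76E12, a glycosyltransferase gene, was at 0.463 and 1.07 (BA) and 1.27 and 0.925 (DMSO) in the mutant, against 3.93 and 4.28 (BA) and 0.789 and 0.729 (DMSO) in wild type, with an interaction of -2.83 (limma adjusted p = 0.110). The genes named in these observations were picked after their values were seen.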
